A study of Aedes albopictus with 4 samples.

Results

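Odorant receptors, gustatory receptors, ionotropic receptors, opsins and arrestins are the proteins with which a mosquito smells, tastes and sees. They were taken from a gene table of whole larvae of Aedes albopictus, the Asian tiger mosquito, as all genes whose product name held "odorant receptor", "gustatory receptor", "sugar taste", "ionotropic receptor", "opsin" or "arrestin". The rule gave 120 of 25320 genes: 50 odorant receptors, 28 gustatory receptors, 11 ionotropic receptors, 11 opsins, 1 rhodopsin-specific isomerase, 3 arrestins and 16 arrestin domain-containing proteins. The rule used names and no measured value. RNA was sequenced from whole larvae in instar 4 at 72 h, in 2 control libraries with no treatment and 2 libraries from larvae given diquat, a redox-active herbicide. The dose was 1/5 LC50, a fraction of the median lethal concentration. The labels give neither the strain nor the number of larvae in a library. The design text describes 1 sample per group with a duplicate and does not say that duplicates came from separate larvae, so p-values measure the spread between these libraries, which may be technical. The comparison asks which sensory transcripts differ after a dose below the lethal one.

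Insect odorant receptors are ion channels built from a tuned receptor and a shared coreceptor, and without the coreceptor the tuned receptor does not reach the cilium of the sensory neuron. Ionotropic receptors descend from glutamate receptors and pair in the same way with a few broadly expressed partners, serving acids, amines, humidity and temperature. Gustatory receptors detect sugars, bitter compounds and, in mosquitoes, carbon dioxide. Opsins are the light-sensing receptors of the eye, and visual arrestins bind light-activated opsin and end its signal.

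The deposited values were read counts divided by 1 factor per library, here called normalized counts. Counted reads totalled 34502559 and 39242657 in the controls and 45243090 and 48383964 with diquat, so that 1 read was worth 1.20 and 1.04 normalized counts in controls and 0.916 and 0.853 with diquat. Counts were not divided by transcript length, and levels of different genes are therefore not ranked against each other. In the AalbF5 annotation 9014 of all 25320 genes overlapped another gene, as did 44 of these 120 genes, a similar share. In 32 cases the gene lay inside another one, and in 32 of those 32 pairs no library gave the inner gene a higher value than the outer one. Many of the inner genes had few or no reads, so this count does not show whether reads were shared. Overlap was judged by the start and end of each gene alone. No source used here gives the strand setting or the treatment of similar gene copies. Whether reads of overlapping genes, or of close paralogs, were shared is therefore not known.

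Most odorant, gustatory and ionotropic receptors had few reads in RNA of whole larvae. No read was recorded for 6 genes in any library, 5 of them gustatory receptors and 1 an odorant receptor, which allows up to 3 reads or 2.56 to 3.59 normalized counts per library. Including these 6, 28 chemoreceptors had under 10 reads over all 4 libraries together. A mean of 10 normalized counts, the minimum for testing, was reached by 13 of 50 odorant receptors, 15 of 28 gustatory receptors and 5 of 11 ionotropic receptors. It was reached by 11 of 11 opsins, 3 of 3 arrestins, 16 of 16 arrestin domain-containing genes and the isomerase. The 37 untested odorant receptors together held 105 and 114 reads in controls and 77 and 106 with diquat.

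**Figure D1:**
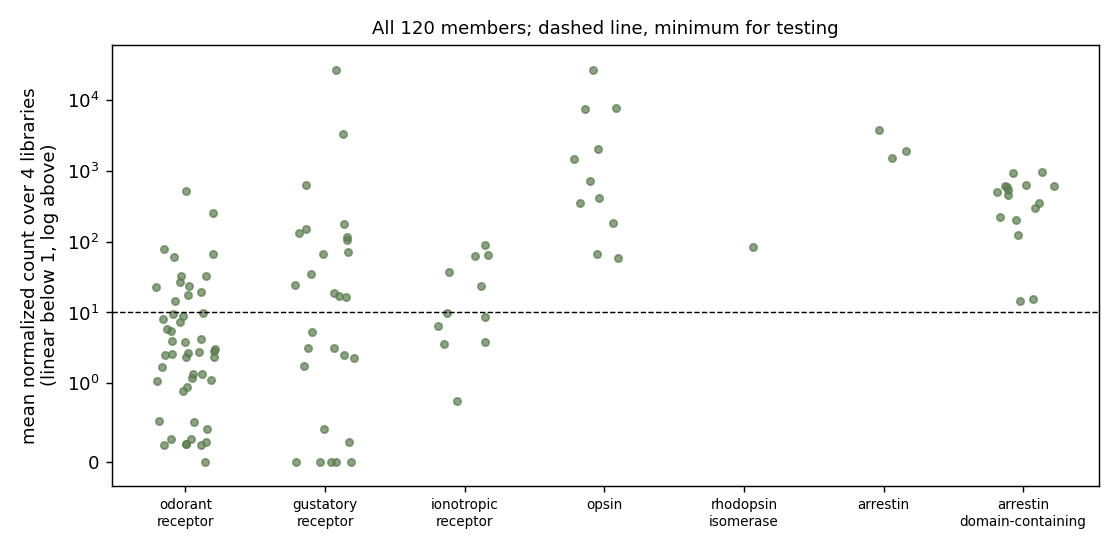
Mean normalized count over the 4 libraries (vertical axis, linear below 1 and logarithmic above) of each of the 120 genes, 1 point per gene, by class. 56 odorant, gustatory and ionotropic receptors lie below the dashed line at 10 normalized counts, and none of the opsins or arrestins does.

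Of the 64 tested genes, 28 passed an adjusted p of 0.05 (limma, Benjamini-Hochberg over all 17992 tested genes of the table), 17 higher and 11 lower with diquat. Of the 17, LOC115254434 reached the minimum only through its diquat values. Among all tested genes 48.8% passed, 26.7% higher and 22% lower. The share over the 64 genes, 43.8%, is near that background and is not in itself a result about them. By class, and with the difference between classes not tested, 9 of 13 opsins and visual arrestins were higher and 1 lower. Of 33 odorant, gustatory and ionotropic receptors, 1 was higher and 5 were lower. Of the 10 calls among the 13, 9 were on genes that overlap another gene, as were 2 of the 6 calls among the 33. The median log2 fold change was 0.30 over the 13 and -0.35 over the 33, against -0.0028 over all tested genes. The share of genes that pass depends on level. Of all tested genes with a mean under 100, 14.2% passed (5.22% higher and 9.0% lower), and their median log2 fold change was -0.18. Of those at 100 or more, 63.3% passed, with a median of 0.06. Chemoreceptors under 100 numbered 23, of which 2 passed, and those at 100 or more numbered 10, of which 4 passed. Fewer cells of a type and less RNA per cell cannot be told apart in whole larvae.

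**Figure D2:**
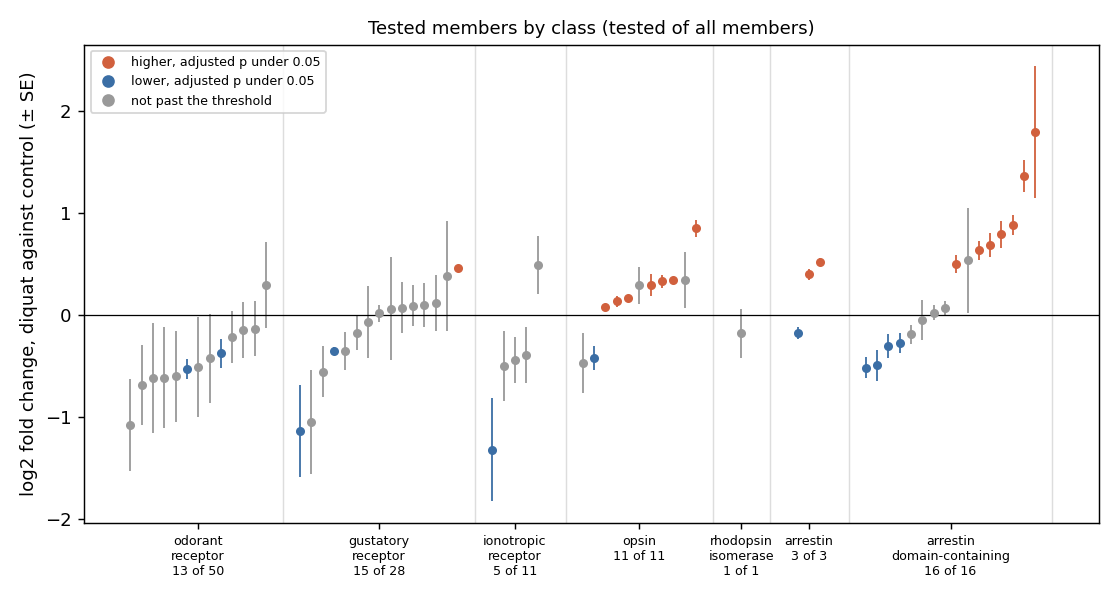
Log2 fold change of diquat against control (vertical axis, on the log2(value + 1) scale) with its moderated standard error for the 64 tested genes, ordered within each class; labels give tested of all genes. Odorant receptors lie mostly below 0 (12 of 13) and opsins mostly above (9 of 11), and grey points did not pass the threshold.

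Among odorant receptors the coreceptor itself was lower with diquat. The odorant receptor coreceptor (LOC109433389), the obligate partner of the tuned receptors, stood at 579 and 633 normalized counts in controls and at 424 and 417 with diquat. Both diquat libraries lay below both controls. Its log2 fold change was -0.52 ± 0.10 (SE, n = 2 per group; limma adjusted p = 5.8e-05), and edgeR (3.68e-05) and DESeq2 (0.00014) called it lower too. The gene overlaps no other gene in the annotation, and its call was kept in each of 18 alternatives.

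Odorant receptor 63a-like (LOC109423359) had 297 and 275 normalized counts in controls and 204 and 238 with diquat. The groups did not overlap, and it fell by 0.37 ± 0.14 on the log2 scale (SE, n = 2 per group; limma adjusted p = 0.0289). In 4 of 18 alternatives that call was lost, including DESeq2 (adjusted p = 0.0868) and the fits without control replicate 1 or diquat replicate 1.

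The other 11 tested odorant receptors did not pass, and all had a mean under 100. Odorant receptor 47a-like (LOC109623405), which lies inside the klarsicht protein gene, came nearest, with 31.1 and 31.3 normalized counts in controls against 18.3 and 11.1 with diquat (log2 fold change -1.07 ± 0.45, SE, n = 2 per group; limma adjusted p = 0.0519). A putative odorant receptor 83c gene (LOC109405928) had 71.8 and 99.1 in controls and 66.0 and 80.2 with diquat, and the groups overlapped. Odorant receptor 4 (LOC109414274), whose namesake in Aedes aegypti answers to an odour of human skin, had 57.4 and 84.5 in controls and 66.9 and 60.6 with diquat, again overlapping. Odorant receptor 43a-like (LOC109422411) had 63.4 and 63.6 in controls and 59.6 and 55.5 with diquat. The sole positive estimate belonged to odorant receptor 22c-like (LOC109399842), at 0.30 ± 0.42 (SE, n = 2 per group). Among the 13 tested odorant receptors both diquat libraries lay below both controls in 8 and above them in 0, against 35.5% and 37.4% of all tested genes. Of the 13, 11 had a mean under 100, and these shares were not worked out by level.

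Summed over the 49 odorant receptors other than the coreceptor, normalized counts were 809 and 891 in controls and 634 and 677 with diquat. Both diquat sums were below both control sums. The sum is a description and carries no test.

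Gustatory receptors held 1 gene that was higher, 2 that were lower and 12 that did not pass. The putative carbon dioxide receptor genes bear names given to their relatives in Anopheles gambiae. Gustatory and odorant receptor 22 (LOC115258621) was listed at 22237 and 22508 normalized counts in controls and 30900 and 30835 with diquat (log2 fold change 0.46 ± 0.02, SE, n = 2 per group; limma adjusted p = 7.59e-18). It overlaps in part the gene of the small ribosomal subunit protein uS17 (LOC109409318), which had 44338 and 44731 in controls and 59221 and 59279 with diquat, or 0.41 ± 0.01 on the log2 scale (SE, n = 2 per group). The receptor's value was 50.2% and 50.3% of that of uS17 in controls and 52.2% and 52.0% with diquat. Whether reads of uS17 were counted for the receptor is not known, so the listed value cannot be taken as a measure of the receptor alone.

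Gustatory and odorant receptor 24 (LOC115254441), the other named subunit of that receptor, overlaps no gene and had 26.3 and 19.8 normalized counts in controls and 11.9 and 9.39 with diquat. The groups did not overlap, but the difference did not pass (log2 fold change -1.04 ± 0.51, SE, n = 2 per group; limma adjusted p = 0.095). Of 2 further genes named gustatory and odorant receptor 22-like, LOC109433552 had 0 and 3.13 normalized counts in controls and 1.83 and 4.27 with diquat, and LOC115259639 had no reads.

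Gustatory receptor 23a-like (LOC109426721) had 3721 and 3637 normalized counts in controls and 2939 and 2845 with diquat, and fell by 0.35 ± 0.04 on the log2 scale (SE, n = 2 per group; limma adjusted p = 6.68e-08). It holds an undescribed nested gene, LOC109422277, whose value equals 92.9% of its own. Whether reads of the nested gene were counted for both is not known. Had they been, 270.3 and 245.2 would be left in controls and 213 and 198 with diquat, a log2 ratio of means of -0.32. This remainder was not tested.

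Receptors for sugars gave no call. Sugar taste 43a (LOC109400635), whose Drosophila counterpart senses fructose, had 203 and 172 normalized counts in controls and 149 and 184 with diquat, and the groups overlapped. A sugar taste 64a-like gene (LOC109408683) was level at 645 and 623 in controls and 651 and 635 with diquat (log2 fold change 0.02 ± 0.09, SE, n = 2 per group; limma adjusted p = 0.864), although an undescribed gene that overlaps it in part, LOC109408684, had a log2 fold change of 0.81. The gene named sugar taste 64b-like (LOC109416051) had 88.5 and 115.8 in controls and 104.5 and 113.5 with diquat. The 64a-like genes LOC109400821 and LOC109400822, of 1 run of neighbours, had log2 fold changes of 0.12 ± 0.28 and -0.06 ± 0.36 (SE, n = 2 per group). In each of these sugar receptors the control and diquat values overlapped. Of the untested ones, LOC134290310 and LOC109415305 (64a-like) had no reads, and LOC115261618 (64a-like), LOC109415107 and LOC134284314 (64f-like) and LOC134290312 (61a-like) had 14, 11, 7 and 13 reads over all 4 libraries.

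Of the 28b genes, named after a Drosophila receptor with roles in warmth and light avoidance, LOC109397940 was lower. It had 25.1 and 43.8 normalized counts in controls and 15.6 and 13.7 with diquat (log2 fold change -1.13 ± 0.45, SE, n = 2 per group; limma adjusted p = 0.0386). The call rested on 21 and 42 reads in controls and 17 and 16 with diquat and was lost in 8 of 17 alternatives, DESeq2 (adjusted p = 0.0838), removal of the trend on genomic span (0.0534) and the fits without control replicate 2 or either diquat library among them. A second 28b gene (LOC109622003) had 194 and 145 in controls and 125 and 139 with diquat without passing. Another (LOC109421677, also named 22a) gave 161 and 142 in controls but 70.6 and 150.2 in the diquat libraries, so that diquat replicate 1 alone stood low. Its log2 fold change was -0.55 ± 0.25 (SE, n = 2 per group; limma adjusted p = 0.0682) and ranged from -1.09 to -0.01 over the fits that left out 1 library. The remaining tested 28b gene (LOC134284118), inside LOC134284116, had 19.1 and 9.39 in controls and 12.8 and 24.8 with diquat, overlapping, and differed by 0.38 ± 0.54 on the log2 scale (SE, n = 2 per group). Bitter taste 66a-like (LOC109414666) had 22.7 and 13.6 in controls and 12.8 and 26.5 with diquat, with no separation. A second 2a gene (LOC109428247) had 22 reads in all and was not tested. Gustatory receptors 2a (LOC109427063, 0.10 ± 0.20) and 68a-like (LOC109414393, 0.08 ± 0.25) had log2 fold changes near 0 (SE, n = 2 per group).

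**Figure D3:**
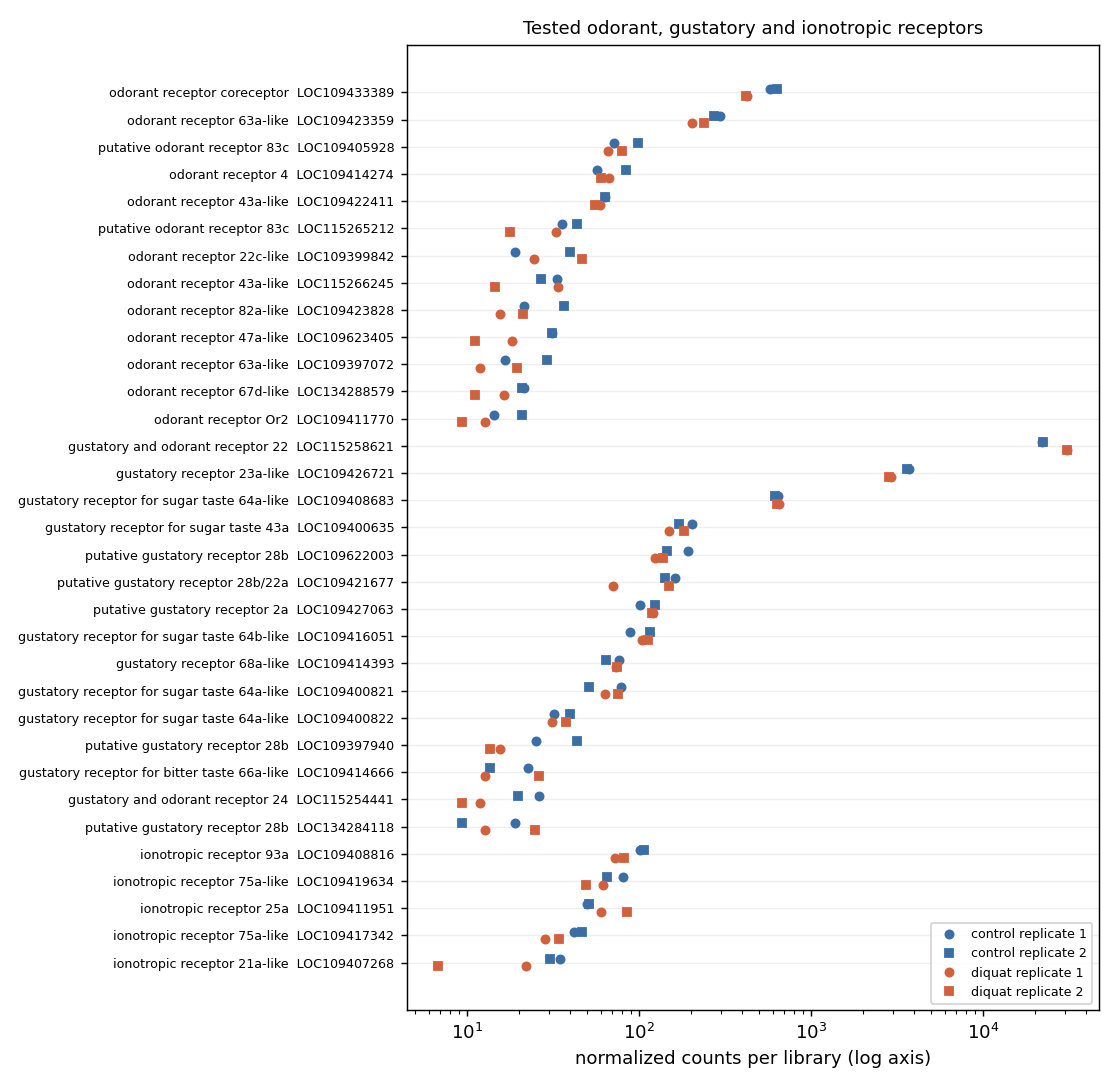
Normalized counts (horizontal axis, logarithmic) of the 33 tested odorant, gustatory and ionotropic receptors in each library, controls in blue and diquat in red, circles for replicate 1 and squares for replicate 2. The 2 diquat points of the coreceptor, at 424 and 417, lie left of both controls, and of the 33 genes 1 was higher and 5 were lower by the test.

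Of 5 tested ionotropic receptors 1 was lower and 4 did not pass. Ionotropic receptor 25a (LOC109411951), the most widely used coreceptor of the family, had 50.2 and 51.1 normalized counts in controls and 60.5 and 85.3 with diquat. Both diquat values were above both controls, without passing (log2 fold change 0.50 ± 0.28, SE, n = 2 per group; limma adjusted p = 0.151). Ionotropic receptor 93a (LOC109408816), a coreceptor for cooling and humidity in flies, had 101.7 and 107.5 in controls and 72.4 and 81.9 with diquat, all lower without passing (-0.44 ± 0.23; limma adjusted p = 0.117), and lies inside a gene named serine/threonine-protein kinase meng-po.

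Ionotropic receptor 21a-like (LOC109407268), the cooling-specific partner of 93a in flies and mosquitoes, had 34.7 and 30.3 normalized counts in controls and 21.99 and 6.83 with diquat. It fell by 1.32 ± 0.50 on the log2 scale (SE, n = 2 per group; limma adjusted p = 0.0327). The low value of diquat replicate 2, of 8 reads, carried the call: without that library the log2 fold change was -0.54 and did not pass, the call was also lost without control replicate 1, and edgeR (adjusted p = 0.0545) and DESeq2 (0.138) did not call the gene. A second gene of that name (LOC115258559), its neighbour in the annotation, had 3 reads in control replicate 2 and none in the other libraries.

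Of 6 genes named 75a or 75a-like, whose Drosophila counterpart answers to acetic acid, 2 were tested and neither passed. LOC109419634 had 81.3 and 65.7 normalized counts in controls and 62.3 and 49.5 with diquat, and LOC109417342 had 41.9 and 47.0 in controls and 28.4 and 34.1 with diquat. In both, the diquat values lay below the controls, and of the 4 untested genes the groups overlapped in 3. Ionotropic receptor 40a (LOC109402376), a humidity receptor in flies, was not tested, at 0 and 4.17 in controls and 1.83 and 8.53 with diquat. In all 5 tested ionotropic receptors the groups did not overlap, which held for 73.0% of all tested genes. All 5 had a mean under 100, and that share was not worked out by level.

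Opsin transcripts were higher with diquat in 7 of 11 genes and lower in 1. The median log2 fold change was 0.30, and of the 9 opsins with a mean of at least 100, 8 passed, against 63.3% of all tested genes at that level, 35.8% higher and 27.5% lower. Product names group them as 6 opsin-1 or opsin-1-like genes, 2 ultraviolet-sensitive opsins, opsin-3, a vertebrate ancient opsin-like gene and a rhodopsin-like gene. Opsin-1 is the name given to long-wavelength opsins of mosquitoes, which serve most of the retina.

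The largest of these changes was in opsin-1 LOC109399710, at 499.96 and 516 normalized counts in controls and 888 and 951 with diquat. Both diquat libraries exceeded both controls, a difference of 0.85 ± 0.08 on the log2 scale (SE, n = 2 per group; limma adjusted p = 2.43e-09) that was called in each of 17 alternatives. This gene lies inside one named myb-like protein X (LOC134290206), which had 5012 and 4707 in controls and 4371 and 4280 with diquat, a log2 fold change of -0.17. The inner gene and the outer gene thus had differences of opposite sign.

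The ultraviolet-sensitive opsins were both higher. LOC109410022 rose from 23370 and 23295 normalized counts in controls to 29459 and 29740 with diquat (log2 fold change 0.34 ± 0.02, SE, n = 2 per group; limma adjusted p = 4.61e-15). Its span holds 7 smaller genes whose summed value equals 22.1% of its own. If their reads were also counted for the opsin, 19046 and 18809 would be left in controls and 22175 and 22452 with diquat. The log2 ratio of those means is 0.24. An undescribed gene that overlaps the opsin in part, LOC109410021, had 19479 and 19459 in controls and 23381 and 23631 with diquat. A second one, LOC134288589, had 4696 and 4808 in controls and 4210 and 3991 with diquat. The log2 fold change of LOC109410022 was 0.65 with the span trend removed and 0.19 after quantile normalization, both called. The second, LOC109398017, had 1289 and 1328 in controls and 1752 and 1557 with diquat (0.34 ± 0.06, SE, n = 2 per group; limma adjusted p = 6.17e-05). It holds the ubiquitin ligase gene sina (LOC109398018), itself at a log2 fold change of 0.51. The nested genes of LOC109398017 had a summed value equal to 50.5% of its own. If their reads were also counted for this opsin, 675 and 713 would be left in controls and 825 and 721 with diquat. The log2 ratio of 0.16 between these means was not tested.

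The remaining opsin-1 calls were small. Opsin-1-like LOC109428005 had 7063 and 7009 normalized counts in controls and 7757 and 8085 with diquat (log2 fold change 0.17 ± 0.03, SE, n = 2 per group; limma adjusted p = 2.61e-05), and its neighbour LOC109418231 had 7503 and 7607 in controls and 7963 and 8016 with diquat (0.08 ± 0.03; limma adjusted p = 0.0193). Both lie inside the undescribed gene LOC115268734. Their summed value equalled 85.8% and 86.3% of its value in controls and 90.2% and 92.0% with diquat. A pair of opsin-1 genes on either side of the rhodopsin-like gene in annotation order, LOC109422721 and LOC109422560, had log2 fold changes of 0.14 ± 0.05 and 0.30 ± 0.11 (SE, n = 2 per group; limma adjusted p = 0.0277 and 0.0227).

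These 4 calls depended on the settings. Quantile normalization turned LOC109418231 to -0.04, and removal of each library's trend on genomic span turned it to -0.05 and LOC109422721 to -0.01. None of the 4 was called under either setting, whereas LOC109399710 and both ultraviolet-sensitive opsins were called under both. Leaving out either diquat library ended the calls of LOC109418231, LOC109422721 and LOC109422560, as did leaving out control replicate 1 for LOC109418231 and LOC109422560 and control replicate 2 for LOC109422721. DESeq2, which called 40.3% of all tested genes, called 4 opsins higher and 1 lower.

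Vertebrate ancient opsin-like (LOC115263972), named after an opsin of the fish brain, was the opsin that was lower, at 402 and 393 normalized counts in controls and 280.4 and 316 with diquat (log2 fold change -0.42 ± 0.12, SE, n = 2 per group; limma adjusted p = 0.0045). The groups were well apart, but the gene lies inside UDP-glucosyltransferase 2 (LOC109418392), which had a log2 fold change of -0.30. Its call was lost with the span trend removed (-0.26, limma adjusted p = 0.0778) and without diquat replicate 1. The 3 opsins that did not pass had log2 fold changes of 0.30 ± 0.18 (opsin-1-like LOC109421127), 0.35 ± 0.27 (opsin-3, LOC115260681) and -0.46 ± 0.29 (rhodopsin-like, LOC109422640), with SE and n = 2 per group. The rhodopsin-specific peptidyl-prolyl isomerase (LOC109433230), in flies a chaperone of the main rhodopsin, had 95.7 and 83.5 normalized counts in controls and 91.6 and 68.3 with diquat, and did not pass (-0.17 ± 0.24; limma adjusted p = 0.582).

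Both genes named arrestin homolog, the name of visual arrestins, were higher with diquat. LOC115270414 rose from 3043 and 3092 normalized counts in controls to 4557 and 4284 with diquat, or 0.53 ± 0.04 on the log2 scale (SE, n = 2 per group; limma adjusted p = 2.14e-11). LOC109424444 rose from 1634 and 1579 to 2197 and 2060, a change of 0.41 ± 0.05 (limma adjusted p = 4.52e-07). In both, every diquat value was above every control value and the call was kept in each of 17 alternatives.

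Each of the arrestin homologs lies inside another gene that also rose. The first is inside the peroxisomal targeting signal 2 receptor (LOC109420874, log2 fold change 0.40). The arrestin's value equalled 71.7% and 70.0% of the outer gene's in controls and 78.0% and 76.9% with diquat. The second is inside a craniofacial development protein 2-like gene (LOC134288002, 0.20), and its value equalled 1.56% to 1.85% of that gene's. Beta-arrestin-1 (LOC134284269), which quenches other receptors and is not a visual arrestin, went the other way, from 1630 and 1564 in controls to 1450 and 1382 with diquat (-0.17 ± 0.06, SE, n = 2 per group; limma adjusted p = 0.015). With the span trend removed it stood at 0.017 and was not called, nor was it without control replicate 1 or diquat replicate 2.

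**Figure D4:**
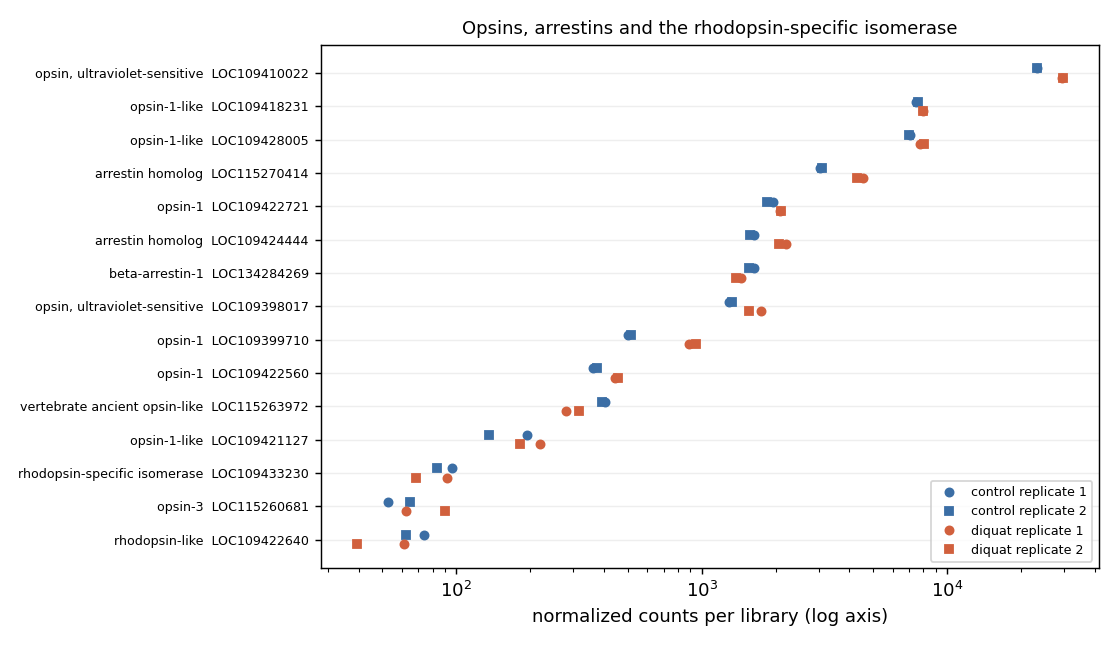
Normalized counts (horizontal axis, logarithmic) of the 11 opsins, 3 arrestins and the rhodopsin-specific isomerase in each library, controls in blue and diquat in red, circles for replicate 1 and squares for replicate 2. Diquat points lie right of both controls in opsin-1 LOC109399710 (888 and 951 against 499.96 and 516) and in both arrestin homologs, and left of them in vertebrate ancient opsin-like and beta-arrestin-1.

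Arrestin domain-containing proteins share a fold with arrestins but are adaptors that bring ubiquitin ligases to membrane proteins, and have no known part in vision. Of the 16 genes, 7 were higher and 4 lower. Of the 14 with a mean of at least 100, 6 were higher and 4 lower. Among all tested genes at that level 63.3% passed, 35.8% higher and 27.5% lower. The counts of the 14 are near those shares and are not in themselves a result about the class. Among the 64 genes 4 passed the test with a fold change of at least 2, 2 of them in this class. The 4 are a share near the 5.15% of all tested genes and are not in themselves a result. The 2 of this class include LOC115254434, which reached the minimum for testing only through its diquat values. Arrestin domain-containing protein 17 (LOC115270398) rose from 138 and 112 normalized counts in controls to 315 and 327 with diquat (log2 fold change 1.37 ± 0.16, SE, n = 2 per group; limma adjusted p = 4.69e-08) and was called in each of 18 alternatives. A gene of the same name (LOC115254434) had 2.39 and 11.5 in controls and 23.8 and 19.6 with diquat. It passed the minimum for testing only through its diquat values, so its fold change and p-value are not given as a result, and without it 6 genes of the class were higher.

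Genes of this class lay side by side. In annotation order, with at most 1 other gene between neighbours, 9 of the 16 formed a run in which 6 were higher, 1 was lower and 2 did not pass. The 6 include LOC115254434, and 5 were higher without it. Among all tested genes 26.7% were higher and 22% lower, and of those with a mean of at least 100, 35.8% and 27.5%. The difference of the run from these shares was not tested. By the same rule 19 runs held 58 of the 120 genes, so such runs were not particular to this class. Arrestin domain-containing protein 2 (LOC109426333) rose from 397 and 468 normalized counts to 819 and 778 (log2 fold change 0.89 ± 0.10, SE, n = 2 per group; limma adjusted p = 1.33e-08), and LOC115253504 of the same name from 208 and 226 to 345 and 412 (0.79 ± 0.13; limma adjusted p = 1.47e-05). Between and beside them, LOC109426332 (protein 3) rose by 0.69, LOC109407242 (protein 17-like) by 0.64 and LOC109426330 (protein 3) by 0.50 on the log2 scale. At the end of the run LOC109426285 (protein 3-like) fell by 0.49 ± 0.15, from 234 and 239 to 170.4 and 166, a call that was lost without diquat replicate 2. None of these 6 genes overlaps another gene, but how reads were shared among similar copies of the run is not known here.

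Outside the run, LOC115254982 (protein 3-like) fell by 0.51 ± 0.10 from 542 and 536 normalized counts to 402 and 354 (SE, n = 2 per group; limma adjusted p = 0.000174) while the RING finger gene around it, LOC115254981, had a log2 fold change of -0.03. LOC134289550 (protein 2-like) and LOC109404495 (protein 4) fell by 0.27 and 0.30 on the log2 scale, calls that DESeq2 did not make (adjusted p = 0.059 and 0.108) and that were lost without either diquat library, and without control replicate 1 and control replicate 2, respectively. LOC134289551 (protein 3-like), which holds LOC134289550, had 914 and 906 in controls and 974 and 944 with diquat and did not pass. If reads of the nested gene were also counted for LOC134289551, 304 and 345 would be left in controls and 487 and 461 with diquat. The log2 ratio of 0.55 between these means was not tested. Protein 2-like LOC109416441, at 663 and 628 in controls and 590.1 and 545 with diquat, did not pass (limma adjusted p = 0.0871). Protein 17 LOC109407197, at 959 and 918 in controls and 988 and 925 with diquat, differed by 0.03 ± 0.07 on the log2 scale (SE, n = 2 per group).

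**Figure D5:**
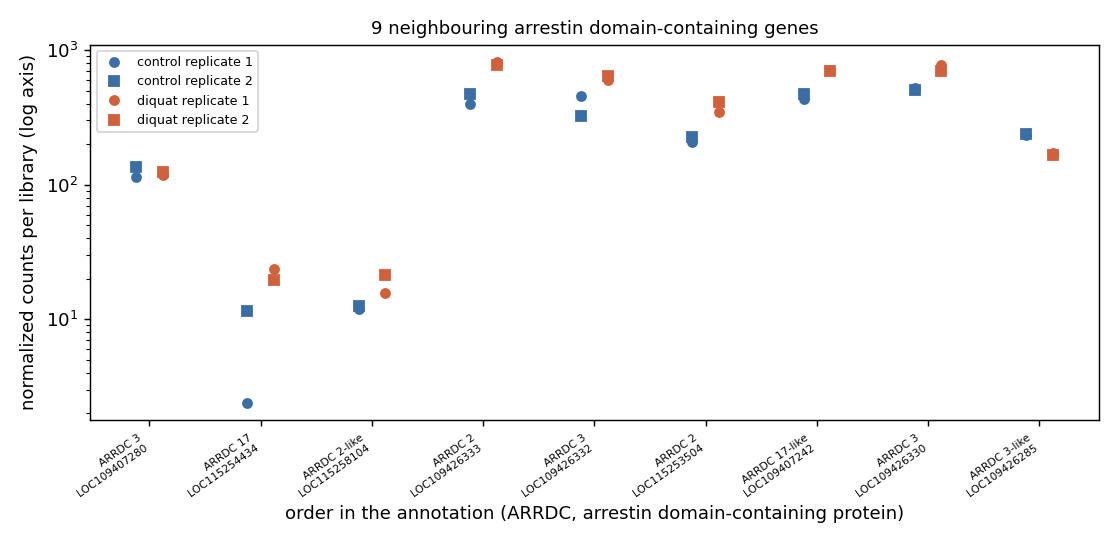
Normalized counts (vertical axis, logarithmic) of 9 neighbouring arrestin domain-containing genes in annotation order, controls in blue and diquat in red, circles for replicate 1 and squares for replicate 2. Diquat values lie above both controls in LOC109426333 (819 and 778 against 397 and 468) and its called neighbours, and below them in the last gene (170.4 and 166 against 234 and 239).

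Other genes of phototransduction were taken by product name, and their difference from the opsins was not tested. Of 60 tested, 12 were higher and 23 lower (median log2 fold change -0.13), against 26.7% higher and 22% lower of all tested genes. With the span trend removed 13 were higher and 14 lower, beside 4931 higher and 3064 lower of all 17992 tested genes. Carotenoid isomerooxygenase (LOC109416057), which makes the chromophore in flies, rose by 0.51 ± 0.09 and a chaoptin gene (LOC109399235), named for a photoreceptor adhesion protein, by 0.49 ± 0.05 (SE, n = 2 per group). The scaffold protein INAD (LOC109406001) fell from 18997 and 18685 normalized counts to 13854 and 13972, a difference of -0.44 ± 0.02 on the log2 scale, and overlaps 3 other genes. Phospholipase C of the name used for norpA (LOC109621640) fell by 0.33 ± 0.05, NINAC (LOC109621667), a myosin of the photoreceptor, by 0.57 ± 0.09, and G protein-coupled receptor kinase 1 (LOC109426380), a kinase that acts before arrestin, by 0.56 ± 0.05. With the span trend removed INAD stood at -0.04 and the phospholipase at -0.08, neither called, while the kinase at -0.27 and NINAC at -0.52 were called. Of 7 chaoptin genes 2 were higher and 3 lower. The Gq alpha subunit (LOC109417786, 0.08 ± 0.05) and the channel TRPL (LOC109425850, 0.14 ± 0.07) did not pass. A transient receptor potential protein-like gene (LOC115254485) fell by 0.44 ± 0.13, but stood at -0.32 and was not called with the span trend removed. A gene named transient receptor potential protein (LOC134285035, -0.02 ± 0.38) did not pass. Some genes entered this list by name alone, among them 13 clavesins, whose part in the mosquito eye is not known here.

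Other chemosensory genes gave 14 higher and 30 lower of 92 tested, with a median log2 fold change of -0.18, against 26.7% higher and 22% lower of all tested genes. Odorant-binding proteins, which carry odorants through the sensillum lymph, gave 3 higher and 10 lower of 40 tested. Genes named ejaculatory bulb-specific protein 3, a name borne by members of the insect chemosensory protein family, gave 5 higher and 16 lower of 32 tested. All 3 painless channels, named for a heat and irritant sensor, were higher, LOC109414163 by 0.45 ± 0.06 and LOC134284891 by 0.75 ± 0.15. TRPA1 (LOC115253829), an irritant and temperature channel, fell from 846 and 752 normalized counts to 549.8 and 552, or -0.53 ± 0.09 on the log2 scale (SE, n = 2 per group; limma adjusted p = 1.02e-05). Sensory neuron membrane protein 2 (LOC109404755) rose by 0.28 ± 0.07, and protein 1 of that name (LOC109427293), which serves pheromone detection in flies, had 0.18 ± 0.23 and did not pass. Ammonium transporters gave 1 higher and 2 lower of 4, and pickpocket channels 0 and 1 of 7 tested.

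Of 17 genes taken by product name as markers of neurons in general 10 fell and 1 rose. Some entered by name alone. The 10 include the CUGBP Elav-like genes LOC109423842 (-0.46) and LOC115262131 (-0.50), and the 1 that rose (LOC109431650) is also named titin homolog. Among all tested genes 22% were lower and 26.7% higher, and of those with a mean of at least 100, 27.5% and 35.8%. The median log2 fold change of the 17 was -0.28. Their summed level was 43475 and 43482 normalized counts in controls and 35029 and 35576 with diquat. With the span trend removed 6 fell and 2 rose, with a median of -0.13. Under that setting the odorant receptor coreceptor stood at -0.39 (limma adjusted p = 0.00156), and its difference from the markers was not tested. Complexin (LOC109430375), a synaptic protein, fell by 0.39 ± 0.03 and neuronal synaptobrevin-like (LOC134288481) by 0.45 ± 0.08 (SE, n = 2 per group). Complexin stood at -0.06 with the span trend removed and was not called, while neuronal synaptobrevin-like stood at -0.37 and was called. Protein elav (LOC109426343), an RNA-binding protein of neurons, had 2172 and 2255 in controls and 2260 and 2320 with diquat, a log2 fold change of 0.05 ± 0.05 that did not pass. Of 5 genes taken by product name as glial markers, excitatory amino acid transporters and a glutamine synthetase 2, 2 rose and 1 fell. Whether they mark glia in these larvae is not known here. The part of these markers, and of gene length, in the values of the sensory receptors was not tested.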

How the data were processed

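The table deposited by the authors holds 1 normalized value per gene and library, a signal that per the file headers is a normalized expression count. Values were whole multiples of each library's smallest value above 0 (100% whole in each library, tolerance 1e-06), so whole reads were recovered. Tools listed in the submitters' processing notes, without their roles, are STAR 2.7.10a, bcl2fastq, DRAGEN and fastp 0.12.4. Counter, build, annotation and strand: not given in the sources used here.

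With limma 3.58.1 (R 4.3.3, mean trend, two-sided), genes with a mean of at least 10 were compared on log2(value + 1), a scale that understates changes of low genes, over all 17992 such genes at an adjusted p of 0.05. Alternatives included edgeR 4.0.16 (8829 genes called) and DESeq2 1.42.0 (7243) on the recovered reads, and removal of each library's trend on genomic span. The test was also tried on simulated counts that gave every gene the same dispersion. No call here rests on that trial. All 25320 identifiers matched the AalbF5 gene table, used only for overlaps, neighbours and spans. Genes named are called members, the 5 of highest mean per class, coreceptors and conserved ionotropic receptors, sugar and carbon dioxide receptors, opsins and visual arrestins; other members named were chosen after their values were seen. The other chemosensory and visual genes, the neighbour rule and the members were chosen with earlier results of these data known. Limits given for genes without reads cover counting error only.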

Additional observations from a re-analysis of the deposited data

How the results depend on the processing

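Of 28 called genes, 13 kept call and direction in all 18 alternatives that gave a value, and 10 lost the call in 4 or more. Reversed signs, all uncalled, were -0.037 (quantile normalization) and -0.052 (span trend removed) for opsin-1-like LOC109418231, and, with the span trend removed, -0.013 for opsin-1 LOC109422721 and 0.017 for beta-arrestin-1 LOC134284269. Counts of members, 17 higher and 11 lower, became 11 and 7 with a constant variance prior, 8 and 5 without overlapping genes, 2 and 2 at 2-fold, and the lower count 6 in DESeq2 and 7 with the span trend removed. Without 1 library, 13 to 16 were higher and 6 to 11 lower. LOC115254434, which reached the minimum only through its diquat values, is among the 17 and among the members higher at 2-fold. All genes called, 4809 higher and 3963 lower, fell to 3027 and 1935 without overlapping genes, where fewer were tested, and to 420 and 507 at 2-fold. With a constant prior, higher and lower counts were 5 and 13 for phototransduction, 9 and 19 for chemosensory partners, and 0 higher for neuron markers. Without overlaps, phototransduction had 11 lower, chemosensory partners 9 higher, and neuron markers 0 higher and 6 lower. With the span trend removed, 14 phototransduction genes and 6 neuron markers were lower and 2 neuron markers higher. At 2-fold, the values were 1 and 0 for phototransduction, 1 and 3 for chemosensory partners, and 0 and 0 for neuron and for glia markers. Leaving out 1 library gave 0 to 1 neuron markers higher and 0 to 1 glia markers lower. The 1 lower glia marker became 0 with no filter on low values, quantile normalization, a constant prior, edgeR, DESeq2, no overlaps and the span trend removed. The cause of these shifts was not tested. With the replicate number as a block, 17 members were higher and 13 lower, and 4935 of all genes higher and 4121 lower. The numbers do not pair the libraries by any label, and deviations of same-numbered libraries correlated at 0.0118 over 17992 genes. Depth limits the odorant, gustatory and ionotropic receptors most, since 56 of them were too low to test.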
